A study of Mus musculus with 9 samples.

Results

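The genes described here are 33 components of the lysosome, 33 of the 55253 gene symbols in the deposited table. They were taken by symbol from a list of lysosomal enzymes, membrane proteins and their transcriptional regulators, and all 33 were present. Of these, 32 reached a mean of at least 1 CPM (the deposited unit, reads scaled to library size) over the 9 libraries and were tested, out of 14759 genes tested in all, and the protease gene Ctsk stayed below that level. They comprise 7 cysteine cathepsins (Ctsb, Ctsc, Ctsh, Ctsk, Ctsl, Ctss and Ctsz), 4 other proteases (Ctsa, Ctsd, Lgmn and Tpp1), 7 glycosidases (Hexa, Gla, Glb1, Gusb, Gaa, Man2b1 and Neu1) and 6 genes of lipid handling (Lipa, Npc1, Npc2, Asah1, Psap and Ppt1). The remainder are progranulin (Grn), 5 membrane proteins (Lamp1, Lamp2, Scarb2, Laptm5 and Mcoln1) and 3 transcription factors of the TFEB family (Tfeb, Tfe3 and Mitf).

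Liver RNA came from 9 male C57Bl/6J mice, each sequenced as 1 library of messenger RNA 3′ ends. In the first group, 5 mice had a Western diet (WD, rich in fat and sugar and widely fed to rodents to model fatty liver) and 10% alcohol in sweetened drinking water for 23 weeks, starting at 10 weeks of age. The other 4 mice, the controls, had chow and tap water. Diet, alcohol and sweetener were given together, so their separate effects cannot be told apart.

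The lysosome is the acidic compartment in which cells digest material taken up from outside and delivered by autophagy. Its hydrolases work at low pH and are sent there as glycosylated precursors, and its membrane is lined by heavily glycosylated proteins such as LAMP1 and LAMP2. In the liver, hepatocytes use it to break down lipoproteins, glycogen and lipid droplets, and Kupffer cells, the resident macrophages, use it to digest what they phagocytose. TFEB, TFE3 and MITF bind a short DNA element shared by many lysosomal promoters, and their activity is controlled largely by phosphorylation and entry into the nucleus.

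Total reads in genes were 3635860 to 6643645 a library, and 1 read was worth 0.152 to 0.270 CPM. The shallowest library was WD+alcohol 1, which also stood furthest out on the first principal component of all tested genes. The hepatocyte marker albumin (Alb) averaged 18876 ± 3597 CPM (SD, n = 5) with Western diet plus alcohol and 33497 ± 6566 CPM (SD, n = 4) in controls. The summed level of 9 measured hepatocyte markers was 25191 to 39954 CPM with Western diet plus alcohol and 41957 to 61711 CPM in controls. In bulk liver RNA, a change in the number of cells of a type and a change in RNA per cell cannot be told apart.

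The comparison asked how combined Western diet and alcohol feeding changed liver gene expression. Among the 32 tested members, 7 rose and 0 fell at an adjusted p under 0.05 (limma-trend, Benjamini-Hochberg over all tested genes). The 7 were the proteases Ctss, Lgmn, Ctsb, Ctsz and Ctsd, the glycosidase gene Hexa and the sphingolipid activator gene Psap. They make up 21.9% of the tested members, beside 1.61% of all tested genes called higher and 0.678% called lower (2.29% in either direction). The members were chosen with earlier results of these data known, so this share is a description only. On whole reads recovered from the values, edgeR called 5 members higher, beside 1.5% of tested genes, and DESeq2 called 8, beside 2.51%. The median log2 fold change was 0.14 over the 32 members and -0.001 over all tested genes, and 23 members had a positive value, beside 49.9% of all tested genes. Only 4 members were called higher without WD+alcohol 1, 3 or 5 or without control 2 or 3, and 5 without control 1. Over all tested genes, 139 to 224 were called higher in those omissions, against 238 with all 9 libraries. Ctss, Lgmn and Ctsb were called whichever of the 9 libraries was left out.

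Roles differed in how many members were called. Of 10 tested proteases 5 rose (50%), of 7 glycosidases 1 (14.3%) and of 6 lipid-handling genes 1 (16.7%), beside 1.61% of all tested genes. Of progranulin, 5 membrane proteins and 3 regulators 0 rose. In roles this small, a count of 0 cannot be told apart from that share. The median log2 fold change was 0.42 for cysteine cathepsins, 0.34 for the other proteases, 0.14 for glycosidases and 0.083 for lipid handling. It was -0.046 for membrane proteins and -0.039 for the regulators. These counts and medians are a description, and the difference between roles was not tested.

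**Figure D1:**
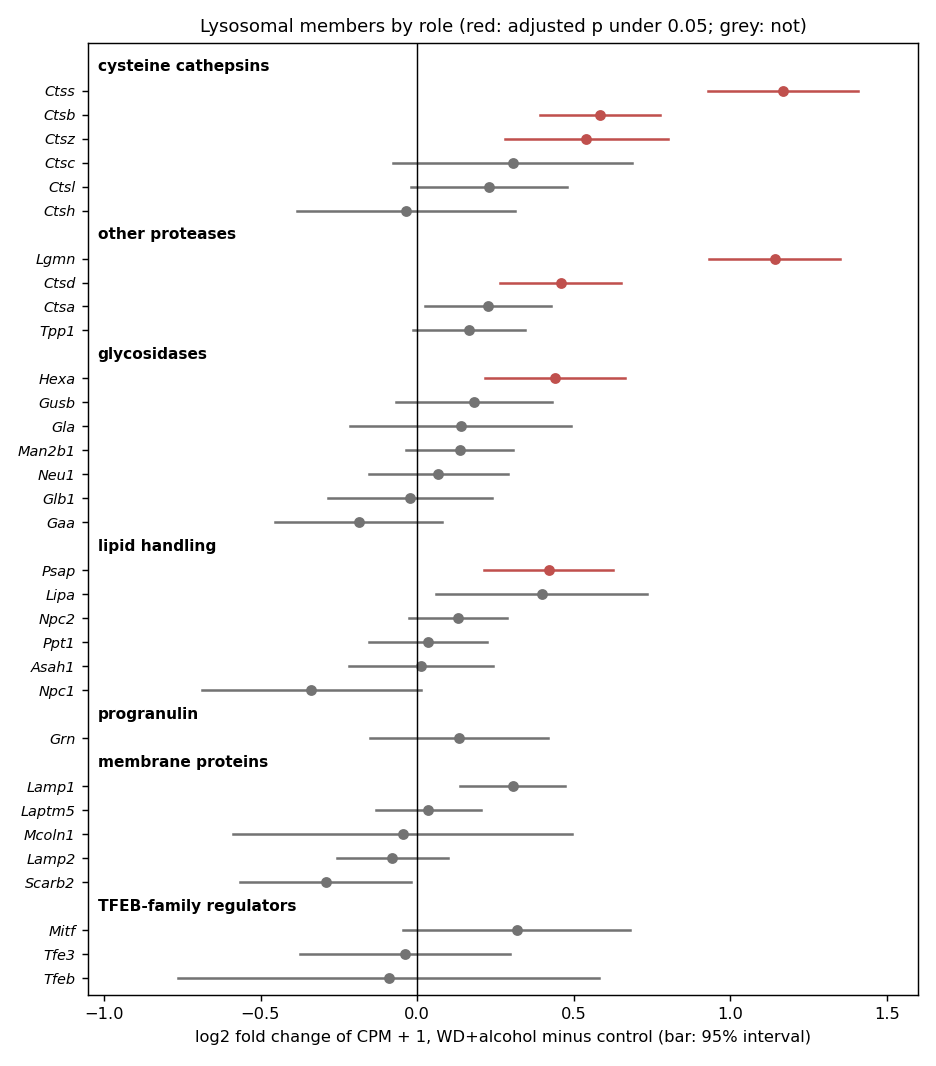
Log2 fold change of CPM + 1 (WD+alcohol minus control) for the 32 tested members, grouped by role, with points for the estimate, bars for the 95% interval, and red for an adjusted p under 0.05. Ctss (1.17) and Lgmn (1.14) stand to the right of the other members, and the intervals of most glycosidases, membrane proteins and regulators include 0.

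Cathepsin S, encoded by Ctss, is a cysteine protease of macrophages and other antigen-presenting cells that trims the invariant chain of MHC class II. It stood at 139, 102, 96.3, 116 and 133 CPM in WD+alcohol 1 to 5 and at 50.1, 47.3, 50.7 and 56.8 CPM in control 1 to 4. Every mouse on Western diet plus alcohol lay above every control, and the lowest of them was well clear of the highest control. This was a 2.25-fold difference, a log2 fold change of 1.17 ± 0.11 (SE; adjusted p = 9.04e-05). Ctss was called under all 20 alternative settings, with adjusted p-values up to 0.00474.

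Legumain, encoded by Lgmn, is an asparaginyl endopeptidase that cuts several cathepsins into their mature chains. Its level was 31.8, 31.2, 30.8, 31.2 and 37.0 CPM in WD+alcohol 1 to 5 and 14.7, 13.2, 14.9 and 13.6 CPM in control 1 to 4. The groups did not overlap, and 4 of the 5 WD+alcohol mice lay within about 1 CPM of each other with WD+alcohol 5 above them. Its log2 fold change was 1.14 ± 0.10 (SE; adjusted p = 4.79e-05), close to that of Ctss on a lower level. Lgmn was also called under all 20 alternatives, with adjusted p-values up to 0.00563.

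Cathepsin B, encoded by Ctsb, is a broadly expressed cysteine protease and one of the most abundant members here. Libraries of WD+alcohol 1 to 5 held 423, 349, 407, 371 and 471 CPM and those of control 1 to 4 held 260.3, 285, 251 and 275 CPM. The highest control lay below the lowest WD+alcohol mouse. On the log2 scale Ctsb rose by 0.58 ± 0.09 (SE; adjusted p = 0.00285).

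Cathepsin D, encoded by Ctsd, is the main aspartic protease of the lysosome. It was read at 405, 345, 393, 321 and 428 CPM in WD+alcohol 1 to 5 and 278, 287, 254 and 276 CPM in control 1 to 4. The controls were tightly grouped and all lay below the WD+alcohol mice, of which WD+alcohol 4 was the lowest. Its log2 fold change was 0.46 ± 0.09 (SE; adjusted p = 0.0153), and the adjusted p was 0.0502 without control 3. With replicate number as a block, the adjusted p was 0.222.

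Cathepsin Z, encoded by Ctsz, is a carboxypeptidase of the same cysteine family. Its values were 106, 109.6, 111, 96.1 and 139.9 CPM in WD+alcohol 1 to 5 and 66.2, 81.5, 67.8 and 93.4 CPM in control 1 to 4. The gap between the groups was narrow, with control 4 just below WD+alcohol 4. The log2 fold change was 0.54 ± 0.12 (SE; adjusted p = 0.0315). With 1 library left out in turn, the call held only without WD+alcohol 4 or control 4, and the adjusted p over the 9 omissions was 0.0163 to 0.107. The call was also lost with no filter on low genes (0.0543) and with replicate number as a block (0.256).

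The other proteases were not called. Ctsa, the carboxypeptidase that also protects beta-galactosidase and neuraminidase in a complex, had WD+alcohol values of 79.1 to 111 CPM, all above the controls at 73.7 to 78.6 CPM, and a log2 fold change of 0.23 ± 0.09 (SE; adjusted p = 0.327). For Tpp1, a tripeptidyl peptidase, the means were 127 ± 12.3 CPM (SD, n = 5) and 113 ± 4.46 CPM (SD, n = 4), with overlapping groups. Ctsl, the cysteine cathepsin with the highest level, averaged 493 ± 29.8 against 426 ± 85.1 CPM, and its 4 controls alone spanned 323 to 532 CPM. Ctsc, the dipeptidyl peptidase that activates serine proteases of granules, averaged 92.1 ± 20.3 against 73.9 ± 15.9 CPM, and Ctsh, an aminopeptidase, 234 ± 45.5 against 239.6 ± 49.3 CPM. Ctsl, Ctsc and Ctsh thus overlapped between the groups, in contrast to Ctss, Ctsb and Ctsz.

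The collagen-degrading osteoclast protease Ctsk was read at 0.188 to 1.89 CPM in WD+alcohol mice and 0.165 to 0.630 CPM in controls. A count of 3 reads is worth 0.455 to 0.809 CPM in these libraries, so most of its values lie at or near that limit and no fold is given.

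Summed over the 11 proteases, the level was 1869 to 2334 CPM with Western diet plus alcohol and 1451 to 1717 CPM in controls, led by Ctsl, Ctsb and Ctsd. The corresponding sums for the 7 glycosidases were 314 to 358 and 288 to 327 CPM. Protease transcripts therefore outnumbered glycosidase transcripts by 5.81 to 6.51 to 1 in the 5 WD+alcohol livers and by 5.03 to 5.47 to 1 in the 4 controls, ranges that did not overlap. Because the libraries read transcript ends, CPM depends little on transcript length, and levels can be set side by side between genes. All 33 members together took 0.509 to 0.612% of the summed CPM in WD+alcohol livers and 0.441 to 0.461% in controls.

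**Figure D2:**
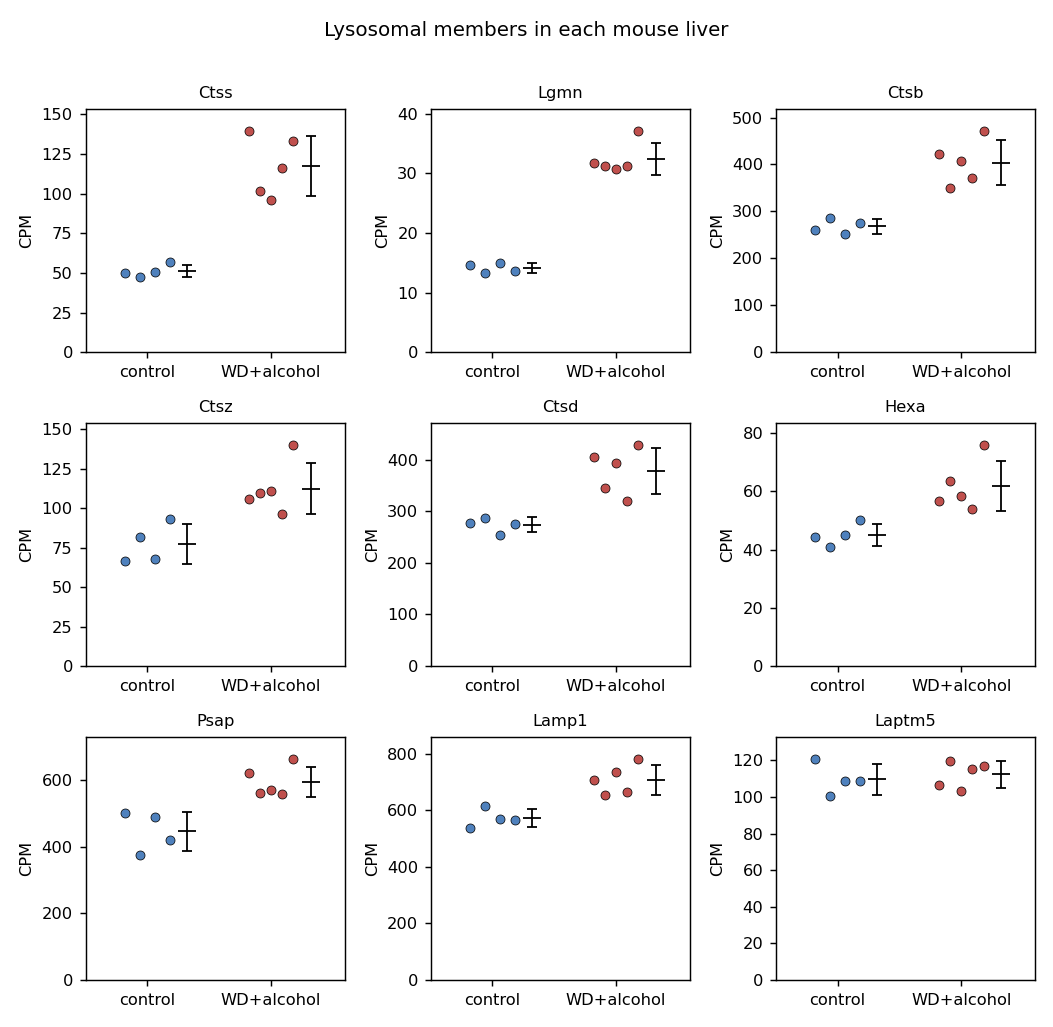
CPM of 9 members in each mouse, on axes that start at 0, with 4 controls in blue and 5 WD+alcohol mice in red, and the mean with its SD beside the points. In the panels from Ctss to Lamp1 all red points lie above all blue points, and in the panel of Laptm5 the groups overlap.

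Glycosidases remove sugars from glycoproteins, glycolipids and glycogen. Hexa, the alpha subunit of beta-hexosaminidase, which degrades gangliosides, stood at 56.9, 63.4, 58.4, 54.1 and 75.9 CPM in WD+alcohol 1 to 5 and 44.2, 40.8, 45.0 and 50.0 CPM in control 1 to 4. The groups were separate, with WD+alcohol 5 the highest and control 4 the nearest control. Hexa rose by 0.44 ± 0.10 on the log2 scale (SE; adjusted p = 0.0426). The call of Hexa was lost with edgeR on the recovered reads (0.052), with no filter on low genes (0.0639), and on leaving out any library other than WD+alcohol 4 or control 4 (up to 0.111). It was also lost with replicate number as a block (0.345).

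None of the other 6 glycosidases was called, and all overlapped between the groups. Man2b1, the lysosomal alpha-mannosidase and the most abundant of them, had a mean of 126 ± 9.78 CPM (SD) in the 5 WD+alcohol mice and 114 ± 7.47 CPM (SD) in the 4 controls. Gusb, beta-glucuronidase, averaged 46.4 ± 3.83 against 41.2 ± 7.82 CPM, and Neu1, a sialidase, 34.3 ± 2.71 against 32.8 ± 4.43 CPM. Gla, the alpha-galactosidase lacking in Fabry disease, averaged 8.97 ± 1.80 against 7.96 ± 0.906 CPM. Glb1, beta-galactosidase, had a log2 fold change of -0.022 (95% interval -0.28 to 0.24), and that of Gaa, the acid alpha-glucosidase that degrades glycogen, was -0.19 (-0.45 to 0.08). The sign of the Glb1 value turned under 5 of the 20 alternatives, among them all libraries rescaled to 1 total (0.030).

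Among lipid-handling genes, Psap rose. It encodes prosaposin, the precursor of the saposins that present sphingolipids to their hydrolases. WD+alcohol 1 to 5 held 620.2, 560.0, 569, 559 and 663 CPM and control 1 to 4 held 501, 375, 488 and 419.9 CPM. The groups did not overlap, and Psap was, after Lamp1, the most abundant member. Its rise on the log2 scale was 0.42 ± 0.10 (SE; adjusted p = 0.0352). It was not called with edgeR (0.0592) or no filter (0.0738), or without WD+alcohol 1, 3 or 5 or control 2 or 4 (0.0551 to 0.11). With replicate number as a block, Psap was not called either (0.268).

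Lipa encodes the acid lipase that frees cholesterol and fatty acids from lipoprotein esters in the lysosome. Its values were 135, 100.4, 135, 88.5 and 155 CPM in WD+alcohol 1 to 5 and 98.4, 110.1, 75.8 and 83.9 CPM in control 1 to 4. WD+alcohol 1, 3 and 5 lay above all controls, and WD+alcohol 2 and 4 lay among them. The log2 fold change of 0.40 ± 0.16 (SE) did not pass the test (adjusted p = 0.286), and its 95% interval was 0.06 to 0.73.

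Npc1 and Npc2 carry the freed cholesterol out of the lysosome. Npc1, the membrane transporter, was read at 57.4, 42.6, 61.9, 56.1 and 53.8 CPM in WD+alcohol 1 to 5 and 68.4, 90.6, 46.4 and 76.5 CPM in control 1 to 4. Control 3 lay among the WD+alcohol mice and the other 3 controls lay above all of them. Its log2 fold change was -0.34 ± 0.16 (SE; adjusted p = 0.431), and that of Npc2, the soluble carrier, was 0.13 ± 0.07 (SE; adjusted p = 0.518). Neither was called, and the estimates had opposite signs.

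The mean of Asah1, acid ceramidase, was 29.6 ± 3.48 CPM (SD) in the 5 WD+alcohol mice and 29.2 ± 2.47 CPM (SD) in the 4 controls, a log2 fold change of 0.012 (95% interval -0.22 to 0.24). Ppt1, a palmitoyl-protein thioesterase, averaged 103 ± 10.8 against 100.5 ± 6.68 CPM, with an interval of -0.15 to 0.22. Grn, progranulin, which is cut into granulins in the lysosome, stood at 367, 302, 294, 282 and 339.5 CPM in WD+alcohol 1 to 5 and 208, 328, 293 and 341 CPM in control 1 to 4. Control 1 was the only Grn value well apart, below all others, and the log2 fold change of 0.13 turned to -0.020 without it.

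Of the membrane proteins, Lamp1 came nearest to a call. LAMP1 is the abundant glycoprotein of the limiting membrane, and its transcript had the highest level of all members. Values were 705, 653, 735, 663 and 781 CPM in WD+alcohol 1 to 5 and 538, 614, 570.2 and 564 CPM in control 1 to 4. All 5 WD+alcohol mice exceeded all 4 controls. The log2 fold change was 0.31 ± 0.08 (SE; adjusted p = 0.0604), and it was called with DESeq2 on the recovered reads (0.00847), with robust limma-trend (0.0363), with array weights (0.0317), with all libraries rescaled to 1 total (0.0262) and without WD+alcohol 2 (0.0455).

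The mean of Lamp2, which also serves chaperone-mediated autophagy, was 349 ± 28.2 CPM (SD) in the 5 WD+alcohol mice and 369 ± 31.9 CPM (SD) in the 4 controls. Scarb2, the receptor that delivers glucocerebrosidase to the lysosome, averaged 245 ± 31.7 against 303 ± 56.7 CPM, and its log2 fold change of -0.29 ± 0.13 (SE) was not called (adjusted p = 0.357). Mcoln1, the calcium channel TRPML1, was low in every liver, at 2.29 to 8.01 against 3.82 to 5.49 CPM. Laptm5, a lysosomal membrane protein of blood cells, was singled out after its values were seen. It stood at 106, 119.8, 103, 115 and 117 CPM in WD+alcohol 1 to 5 and 121, 100.4, 109 and 109 CPM in control 1 to 4. The groups overlapped fully, and the 95% interval of its log2 fold change was -0.13 to 0.20.

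In all, 9 members had every WD+alcohol mouse above every control (Ctss, Lgmn, Ctsb, Ctsz, Ctsd, Ctsa, Hexa, Psap and Lamp1), against 3.34% of all tested genes, and 0 had every one below, against 2% of tested genes. WD+alcohol 5 was the highest of its group for 14 of the 32 tested members (43.8%), beside 17.9% of all tested genes. WD+alcohol 2 was the lowest for 13 members (40.6%), beside 23.5% of all tested genes. Among controls, control 2 was the highest for 15 members (46.9%), beside 31.0% of all tested genes. Without WD+alcohol 5 the called members were Ctss, Lgmn, Ctsb and Ctsd.

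**Figure D3:**
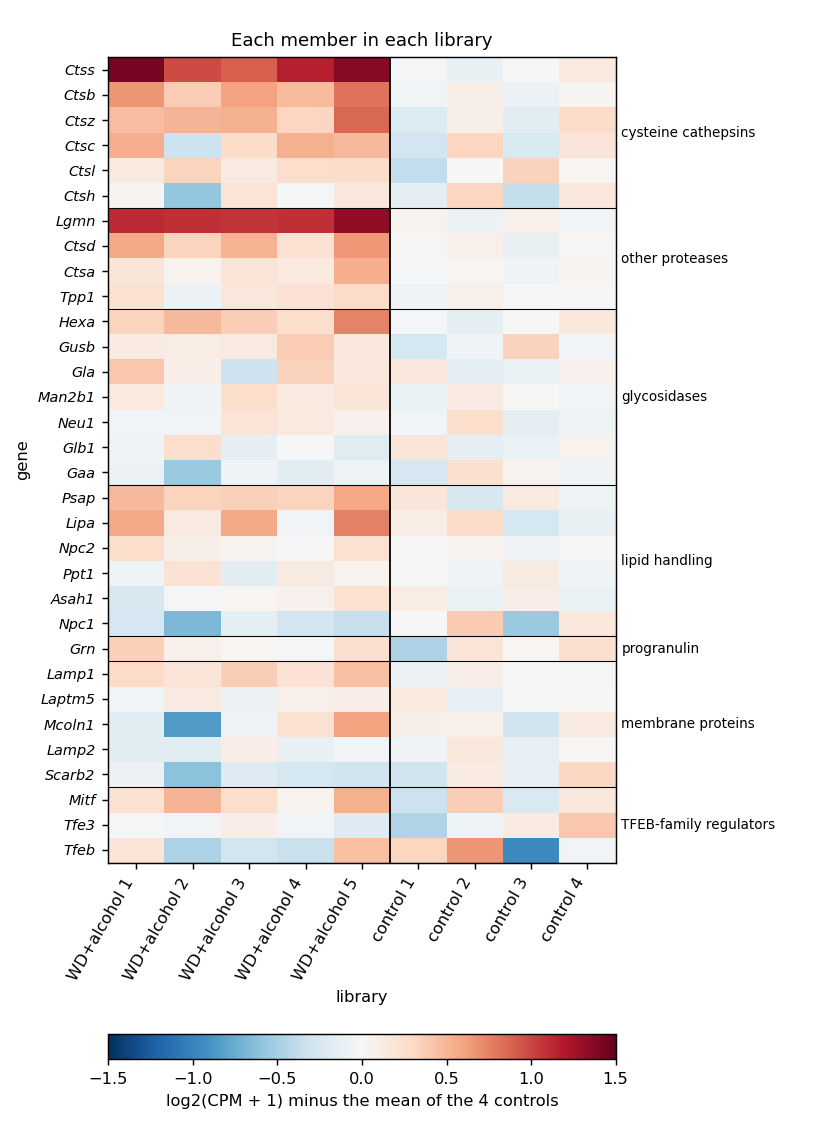
Level of each of the 32 tested members in each library, as log2(CPM + 1) minus the mean of the 4 controls, with WD+alcohol libraries left of the vertical line, controls right of it, and roles separated by horizontal lines. Ctss and Lgmn are raised in all 5 WD+alcohol columns, while Npc1, Scarb2 and Tfeb vary as much among the controls as between the groups.

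Transcripts of the TFEB family were scarce and not called. Tfeb itself was read at 3.50, 1.83, 2.25, 2.12 and 4.40 CPM in WD+alcohol 1 to 5 and 3.95, 5.25, 1.04 and 2.84 CPM in control 1 to 4. The controls ranged more widely than the WD+alcohol mice and enclosed all of them. The log2 fold change of Tfeb was -0.091 (95% interval -0.76 to 0.58; adjusted p = 0.952), and its sign turned without WD+alcohol 2, control 1 or control 2.

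Tfe3, the most abundant of the family, stood at 14.6, 14.4, 16.0, 14.4 and 12.8 CPM in WD+alcohol 1 to 5 and 10.5, 14.1, 16.2 and 19.9 CPM in control 1 to 4. Its log2 fold change was -0.039 (95% interval -0.37 to 0.30; adjusted p = 0.959). Mitf, best known from pigment cells and osteoclasts, was read at 11.3, 13.9, 11.6, 9.85 and 14.2 CPM in WD+alcohol 1 to 5 and 7.41, 12.6, 7.99 and 10.8 CPM in control 1 to 4. WD+alcohol 2 and 5 lay above all controls and the other 3 among them, with a log2 fold change of 0.32 ± 0.17 (SE; adjusted p = 0.485). RNA levels do not measure phosphorylation or nuclear entry of these factors.

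The element bound by the family, known as CLEAR, was searched in promoters because its binders and their targets are both among the members. RefSeq promoter windows (build GRCm38.p6, 250 bases before to 50 after a gene's start) were at hand for 29 of the 33 members. The windows were matched by symbol, and the reads had been aligned to another build. Ctsb, Ctsh, Npc1 and Asah1 had no window. The full palindrome, 10 letters long, occurred in 0 of 29 members and 0.37% of 27025 genes. Its core TCACGTGA occurred in 4 members (13.8%), Ctsa, Ctsd, Gla and Mcoln1, against 1.12% of genes. The E-box CACGTG, which lies within the core and which many other factors also bind, occurred in 9 members (31.0%) against 8.09% of genes. All 3 motifs are palindromes, so both strands read the same. The 27025 genes are all genes with a window, tested in liver or not, so this is not the background used for the calls. The element is shared by many lysosomal promoters, so a higher share among lysosomal genes is not an independent result.

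The core sites are shown 5′ to 3′ along the gene with the TCACGTGA in capitals. Ctsl, Lgmn, Glb1, Gaa and Lamp1 have E-boxes only. Of these, Lgmn and Lamp1 are shown, with CACGTG in capitals, and the others are not.
Ctsa, first site: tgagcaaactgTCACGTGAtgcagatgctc
Ctsa, second site: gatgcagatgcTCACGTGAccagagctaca
Ctsd: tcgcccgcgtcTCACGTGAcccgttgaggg
Gla, first site: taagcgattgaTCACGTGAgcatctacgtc
Gla, second site: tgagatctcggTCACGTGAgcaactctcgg
Mcoln1: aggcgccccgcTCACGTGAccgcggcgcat
Lgmn: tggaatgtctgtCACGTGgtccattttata
Lamp1: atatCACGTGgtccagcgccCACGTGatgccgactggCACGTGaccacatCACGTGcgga
On GRCm38.p6 these lie at chr2:164833749-164833778 and chr2:164833766-164833795 (plus strand) for Ctsa, chr7:142387908-142387937 (minus) for Ctsd, chrX:134601215-134601244 and chrX:134601182-134601211 (minus) for Gla, chr8:3500462-3500491 (plus) for Mcoln1, chr12:102439124-102439153 (minus) for Lgmn and chr8:13159096-13159155 (plus) for Lamp1. The core begins 99 bases before the gene start in Ctsd and 46 before it in Mcoln1, and the 60 bases of Lamp1 hold 4 E-boxes.

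The calls were set beside the motifs. Of the 4 genes with the core, Ctsd rose, Ctsa was not called with separate groups, and Gla and Mcoln1 overlapped between the groups. Of the genes with E-boxes only, Lgmn rose, and Ctsl, Glb1, Gaa and Lamp1 were not called. Of the called genes with a window, Ctss, Ctsz, Hexa and Psap had no E-box in it. A match in a window is a description of letters and not of binding.

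Other genes of the compartment came from lists chosen alongside the members. Of 28 further lysosomal hydrolases, all tested, 1 rose (3.57%, beside 1.61% of all tested genes called higher) and 0 fell. This was Arsa, arylsulfatase A, at 27.5, 29.2, 28.5, 33.9 and 32.6 CPM in WD+alcohol 1 to 5 and 22.7, 16.6, 11.6 and 22.2 CPM in control 1 to 4 (log2 fold change 0.74 ± 0.17, SE; adjusted p = 0.0313). The median log2 fold change of these hydrolases was 0.17, and 71.4% of the values were positive, beside 49.9% of all tested genes. At an unadjusted p under 0.05, 5 were higher and 0 lower, beside 7.41% and 4.77% of all tested genes.

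Of 17 tested subunits of the V-ATPase, the proton pump that acidifies the lysosome, 1 rose (5.88%) and 0 fell. Atp6v0d2, a subunit isoform of osteoclasts and macrophages, was read at 3.77, 3.06, 4.69, 5.00 and 2.40 CPM in WD+alcohol 1 to 5 and 1.48, 0.420, 0.869 and 0.568 CPM in control 1 to 4 (adjusted p = 0.00742). The groups did not overlap, on a low level. The V-ATPase median was 0.078, 82.4% of the values were positive, and 2 subunits were higher and 0 lower at an unadjusted p under 0.05. Of 20 further lysosomal membrane proteins, 2 rose (10%) and 0 fell, with a median of 0.16 and 85% positive values. At an unadjusted p under 0.05, 5 of the 20 were higher and 0 lower. Gpnmb, a glycoprotein of late endosomes and melanosomes, had a log2 fold change of 3.35 ± 0.25 (SE; adjusted p = 3.03e-05), and Cd68, the macrophage counterpart of the LAMP proteins, one of 1.01 ± 0.12 (SE; adjusted p = 6.16e-04).

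No gene was called among 11 of lysosomal sorting and the mannose 6-phosphate pathway (median 0.037), 21 of autophagy (median 0.034), 21 of the nutrient control of TFEB (median 0.028) or 3 cystatins, inhibitors of cysteine cathepsins (median 0.18). At an unadjusted p under 0.05, which 7.41% of all tested genes passed on the higher side and 4.77% on the lower, 1 of the sorting genes was higher and 0 lower, 1 of the autophagy genes higher and 2 lower, 1 of the nutrient control genes higher and 0 lower, and 1 of the cystatins higher and 0 lower. The most abundant gene of each list was the endocytic receptor Lrp1 (log2 fold change 0.16), the autophagy receptor Sqstm1 (0.11), the 14-3-3 protein gene Ywhab (-0.017) and cystatin C, Cst3 (0.086).

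Macrophage markers were compared between the same groups. Of 10 Kupffer cell markers 7 rose and 0 fell, beside 1.61% of all tested genes called higher and 0.678% called lower. Their summed level was 369.6 to 667 CPM in WD+alcohol livers and 91.9 to 195 CPM in controls. The median log2 fold change was 1.43, with a range of -0.50 to 2.53 and 2 negative values. Marco and Cd163 were not called. Clec4f, a lectin of Kupffer cells, averaged 34.6 ± 6.06 against 16.6 ± 6.47 CPM, while Timd4, a marker of long-resident Kupffer cells, averaged 2.43 ± 1.20 against 2.86 ± 0.946 CPM and was not called. Of 12 monocyte and macrophage markers 6 rose and 0 fell (median log2 fold change 0.63, summed level 946 to 1174 against 725 to 797 CPM), and Adgre1, encoding F4/80, had a log2 fold change of 1.24 ± 0.16 (SE). This is near the values of Ctss and Lgmn, and the difference between the genes was not tested.

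Of 10 markers of lipid-associated macrophages, cells found in fatty tissue, 5 rose and 0 fell (summed level 507 to 689.7 against 343 to 423 CPM). Of all tested genes, 1.61% were called higher and 0.678% lower. Cd9, Spp1, Fabp5, Lgals3 and Itgax of this list were not called. Gpnmb and Atp6v0d2 are among those that rose and were already counted above with the lysosomal lists. Cd68 was likewise counted there and among the monocyte and macrophage markers. Trem2 was read at 9.97, 3.36, 3.94, 5.45 and 5.81 CPM in WD+alcohol 1 to 5 and 0.659, 0, 0.174 and 0.758 CPM in control 1 to 4. None of these 3 marker lists had a gene at 0 in all libraries. Ptprc, one of the 12 monocyte and macrophage markers above, encodes CD45, a surface protein of leukocytes in general. Of those 12 markers, 11 had a positive log2 fold change and 1 a negative one. Ptprc had means of 166 ± 13.8 CPM (SD) in the 5 WD+alcohol mice and 167 ± 11.5 CPM (SD) in the 4 controls. The 95% interval of its log2 fold change was -0.18 to 0.17, and the groups overlapped. The part of macrophage number or state in the rise of the lysosomal genes was not tested. Ptprc was chosen after its values were seen.

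**Figure D4:**
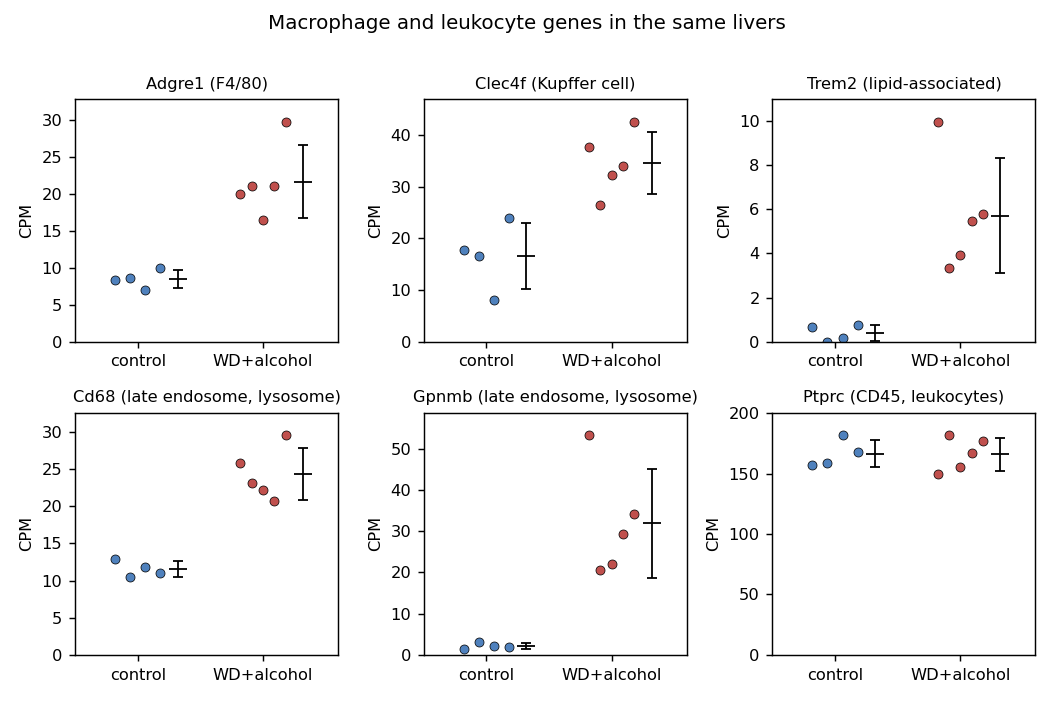
CPM of 6 macrophage and leukocyte genes in each mouse, drawn as in the plot of lysosomal members, with 4 controls in blue, 5 WD+alcohol mice in red, and the mean with its SD beside the points. All red points lie above all blue points for Adgre1, Clec4f, Trem2, Cd68 and Gpnmb, and the groups overlap for Ptprc.

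Markers of other cell types the liver RNA could hold were also examined. Of all tested genes, 1.61% were called higher and 0.678% lower. At an unadjusted p under 0.05 (limma-trend), 7.41% of all tested genes were higher and 4.77% lower. In lists this small, a count of 0 or 1 cannot be told apart from those shares. Of 7 sinusoidal endothelial markers 1 rose (Fcgr2b), 5 were higher at an unadjusted p under 0.05, and the median log2 fold change was 0.44, with a summed level of 159 to 202 against 104 to 161 CPM. Of 3 tested neutrophil markers 0 were called, but 2 were higher at an unadjusted p under 0.05 and the median of the 3 was 0.70, near that of the monocyte and macrophage markers. All 7 neutrophil markers summed to 21.0 to 42.8 CPM with Western diet plus alcohol and 9.45 to 22.9 CPM in controls. Of 8 stellate cell markers 1 rose (Dcn) and 2 were higher unadjusted, with a median of 0.20. None of 2 tested T and NK cell markers (median 0.63, 1 higher unadjusted), 3 B and plasma cell markers (median -0.022, 0 higher unadjusted) or 4 cholangiocyte markers (median 0.029, 1 higher unadjusted) was called. Of the 9 hepatocyte markers measured, 2 fell, Apoa1 and Alb, 7 were lower unadjusted, and the median log2 fold change over the 9 was -0.49. Fcgr2b, Dcn and Apoa1 were named after their values were seen. The part of these cell types in the rise of the lysosomal genes was not tested.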

How the data were processed

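Per the labels' protocols, liver RNA was isolated with Trizol and chloroform, and libraries of 3′ mRNA ends were built with a Collibri kit. Per the submitters' processing notes, the tools were Trim Galore 0.6.0, cutadapt 1.18, STAR, HTSeq 0.11.0 and edgeR 3.28.1, and the mouse build was GRCm39. Strand use and multimapping treatment were not given in the sources used here. Overlapping genes and near-identical copies are therefore uncertain. The authors deposited a signal per gene, read counts scaled to library size and by TMM (CPM). Each positive value (100%, tolerance 1e-06) was a whole multiple of its column's smallest one, so reads could be recovered. Library names in the labels tied each column to 1 sample, taken as 1 mouse.

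Tests used log2(CPM + 1), limma-trend (limma 3.58.1 under R 4.3.3, two-sided) and a filter of a mean of 1 CPM or more, which left 14759 genes. Benjamini-Hochberg adjustment covered all of them, with a threshold of 0.05. Fold changes on this scale understate those of low genes. Recovered reads were tested with edgeR 4.0.16 (315 genes called) and DESeq2 1.42.0 (545 called). The script was tested on simulated data. The limit of 3 reads covers counting error only. Replicate numbers were not treated as pairs in the main test. Deviations of same-numbered libraries correlated at -0.31 to -0.01. So few values cannot exclude a pairing, and a fit with replicate number as a block is among the alternatives.

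Members and lists were chosen with earlier results of these data known. The naming rule gives every library's value for called members, for the most abundant tested member of a role without calls, and for Lipa, Npc1, Tfeb, Tfe3 and Mitf. Of the other pathway lists it names up to 4 called genes with the smallest p, or else the most abundant gene. Of the cell marker lists it gives counts, with values for Clec4f, Timd4, Adgre1, Trem2 and Alb whatever they show.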

Additional observations from a re-analysis of the deposited data

Results flagged for a closer look

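In 5 of 64 groups of values checked (32 members in 2 groups), 1 library stood far from the rest by Dixon's ratio of its gap to the group's range, where chance gives about 1 in 20. WD+alcohol 5 was the highest of its group for Ctsa, at 111 CPM against 79.1 to 87.3 CPM in the others (ratio 0.747), and for Lgmn, at 37.0 against 30.8 to 31.8 CPM (0.837). WD+alcohol 4 was the highest for Gusb, at 53.2 against 44.0 to 45.4 CPM (0.843). WD+alcohol 2 was the lowest for Gaa, at 33.9 against 45.3 to 48.8 CPM (0.765), and control 3 was the lowest for Mcoln1, at 3.82 against 5.25 to 5.49 CPM (0.855). Without WD+alcohol 5 the log2 fold change of Lgmn was still called.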

How the results depend on the processing

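The counts of called genes and members, the medians by role and the members' log2 fold changes were recomputed under 20 alternatives fixed with the design (19 for Tfeb, which the filter at a mean of 5 CPM removes). The other pathway and marker lists, the counts of groups without overlap and the ratio of proteases to glycosidases were not. Of the 32 tested members, 23 kept the sign of their log2 fold change in all of those run. Ctss and Lgmn were called in all 20 and Ctsb in 19 (all but the replicate block), Ctsd in 18, Psap in 12, Ctsz in 11 and Hexa in 10. With no filter 4 members were called (Ctss, Lgmn, Ctsb and Ctsd). Leaving out 1 library gave 4 to 7 called members and 3 to 5 called proteases, with 201 to 387 genes called in all, 139 to 264 higher and 59 to 123 lower. DESeq2 called 545 genes, 370 higher and 175 lower, and 365 were higher with all libraries rescaled to 1 total, which moved the median of all genes to 0.05. The cause of these differences was not tested. The replicate block (8 libraries, numbers shared by label only) gave 111 genes, 75 higher and 36 lower, with 2 members called, both proteases (Ctss and Lgmn).

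The glycosidase median was 0.10 with a pseudocount of 5, 0.19 with libraries rescaled to 1 total, 0.11 with array weights and 0.088 to 0.16 on leaving out 1 library. The signs that turned belong to members with log2 fold changes near 0. With libraries rescaled to 1 total Ctsh was 0.020, Glb1 0.030 and Tfe3 0.013. With array weights Ctsh was 0.019 and Mcoln1 0.014, and Mcoln1 was 0.015 with edgeR and 0.017 with DESeq2. With the replicate block Glb1 was 0.017 and Asah1 -0.040. Leaving out 1 library gave ranges of -0.15 to 0.10 for Ctsh, -0.093 to 0.037 for Glb1, -0.040 to 0.076 for Asah1, -0.0091 to 0.085 for Ppt1, -0.020 to 0.22 for Grn, -0.0050 to 0.083 for Laptm5, -0.21 to 0.15 for Mcoln1, -0.41 to 0.13 for Tfeb and -0.19 to 0.095 for Tfe3. In promoters, the shorter motifs gave 13.8% (TCACGTGA) and 31.0% (CACGTG) of members against 0% for the full palindrome. Depth limits Tfeb, Mcoln1 and Ctsk most, since each has few reads a library.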
